A study of Mus musculus with 14 samples.

Results

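The subject is the genotype difference in the coculture response of mouse mast cells. Taken gene by gene, it is the change on coculture in cells lacking Pla2g3 minus the change on coculture in wild-type cells, called the interaction below. All 14 of the 14 arrays of the series entered it, and each group was taken from the sample title. The groups were 3 arrays of cocultured Pla2g3-/- cells, 4 of Pla2g3-/- bone marrow-derived mast cells (BMMCs), 4 of cocultured Pla2g3+/+ cells and 3 of Pla2g3+/+ BMMCs. All came from mice of the strain given as C57BL/6.129Sv-N3. BMMCs had been grown for 4 to 6 weeks in medium containing IL-3. The cocultured cells had then spent 4 days on a monolayer of Swiss 3T3 fibroblasts, a mouse cell line, with stem cell factor at 100 ng/ml, and were collected as the nonadherent cells. Swiss 3T3 cells are themselves of mouse origin, so their RNA reads on the same probes as that of the mast cells. The labels do not say whether the numbered samples came from separate animals or cultures, so the p-values refer to sample-to-sample spread, which may be technical. Expression was read on 1-colour Agilent arrays, and a level is the log2 signal minus the 75th percentile of its array, so 1 unit is a 2-fold difference.

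Mast cells are granulated immune cells that carry the high-affinity IgE receptor and the receptor tyrosine kinase Kit. Cultured with IL-3 they stay immature, and contact with fibroblasts together with the Kit ligand stem cell factor drives them towards the connective tissue type, with more histamine, heparin and chymases of the Mcpt family in their granules. Pla2g3 encodes a secreted phospholipase A2 of group III, which releases fatty acids from membrane phospholipids and so feeds the synthesis of prostaglandins and leukotrienes. The series asks how its loss bears on this fibroblast-directed maturation.

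The Pla2g3 probe (chr11:3393221-3393280, mm9) does not check the genotype labels here, since the sources used do not say which part of the gene was removed. Its level was -3.13, -1.70 and -1.88 in cocultured knockout cells, against -1.37, -1.27, -1.56 and -1.92 in knockout BMMCs. In cocultured wild-type cells it was -4.23, -3.15, -4.07 and -2.13, against -3.71, -4.63 and -2.91 in wild-type BMMCs. The probe read higher in knockout BMMCs than in wild-type BMMCs on every array. The interaction of Pla2g3 was -1.06 (SE 0.76) and did not pass the test (limma, adjusted p = 0.995).

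A pair of cocultured arrays stood apart from their groups, and both lay on slide 4, the slide scanned on another day. Across all genes tested, the third knockout array correlated at 0.913 to 0.916 with the other cocultured knockout arrays and at 0.974 with the first cocultured wild-type array. The third wild-type array correlated at 0.895 to 0.916 with the other cocultured wild-type arrays, and at 0.978 and 0.967 with the first and second cocultured knockout arrays. Y-linked genes did not divide in the same way. Eif2s3y, a Y-linked translation factor gene, read -5.50, -6.22 and 2.9 in cocultured knockout cells and 3.05, 2.66, 3.38 and 2.86 in cocultured wild-type cells. The third array of both genotypes was thus high for it, as were all cocultured wild-type arrays. C1qtnf12, a secreted C1q-related protein gene, had the lowest p of the genes that separated the BMMC genotypes without overlap and were well above background on all 7 cocultured arrays (adjusted p = 0.514). It read 1.62, 1.39 and 1.77 in cocultured knockout cells and 2.71, 3.42, 2.48 and 2.27 in cocultured wild-type cells, with no overlap, the slide 4 arrays included. Whether the labels of the slide 4 arrays are right was not tested. The main counts are therefore given with all 14 arrays and with the 11 arrays of slides 1 to 3. For many single genes only the value of slides 1 to 3 is printed, and Cdc6, for example, had 2.57 there and 1.13 over 14 arrays. Leaving out slide 4 was chosen with results of these data known and removes the arrays that lie against the difference itself, so the 11-array values describe those arrays and are no independent evidence. In the values below, the third value of each cocultured group and the fourth of knockout BMMCs are the slide 4 arrays.

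With all 14 arrays, the responses of the genotypes ran the same way. Of 15846 genes tested, 2322 changed on coculture in knockout cells (14.7%; 1357 rose, 8.56%, and 965 fell, 6.09%) and 2032 in wild-type cells (12.8%; 1027 rose, 6.48%, and 1005 fell, 6.34%). A total of 1377 genes changed in the same direction in both, 705 up and 672 down. These were 59.3% of the genes called in knockout cells and 67.8% of those called in wild-type cells. No gene was called in opposite directions. Of the genes called in knockout cells 99.8% had the same sign in wild-type cells, and of those called in wild-type cells 99.8% had the same sign in knockout cells. With the slide 4 arrays left out, 1542 genes changed the same way and 161 in opposite directions. More genes were called there, 4685 in knockout cells and 3783 in wild-type cells. The 1542 were therefore smaller shares, 32.9% and 40.8% of the calls. The same sign in the other genotype was held by 74.3% of genes called in knockout cells and 78.9% of those called in wild-type cells. Across genes, the responses of the genotypes correlated at 0.858 over 14 arrays and at 0.587 on slides 1 to 3, a description over genes within the same libraries. As an overall measure, the root mean square of the response was 1.16 in knockout cells and 1.27 in wild-type cells, a ratio of 0.914. An exact two-sided permutation, which exchanged genotypes among the BMMC arrays and separately among the cocultured arrays (1225 relabellings), gave p = 0.303 for that ratio, where the smallest p it allows is 0.000816. The ratio on slides 1 to 3 was 0.872 (exact p = 0.265).

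**Figure D1:**
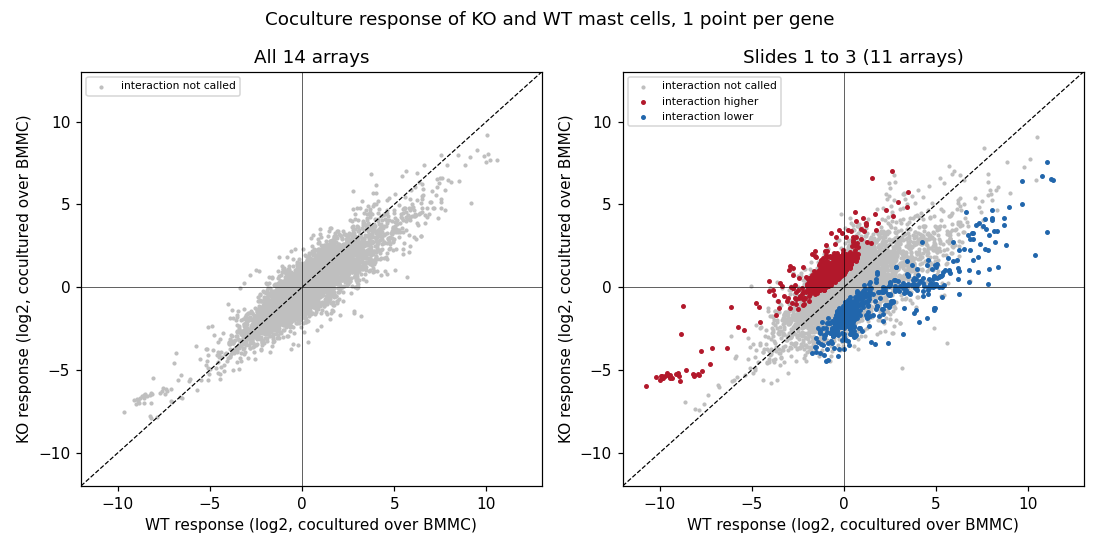
Coculture response of knockout cells (vertical axis, log2 difference) against that of wild-type cells (horizontal axis, log2 difference), 1 point per gene, over all 14 arrays and over the 11 arrays of slides 1 to 3. With 14 arrays no gene is called for the interaction and points follow the diagonal; on slides 1 to 3 the 1643 called genes (1143 higher and 500 lower in knockout) lie off it.

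Agreement was described by the interval of the interaction. For 2012 genes (12.7%), the 95% interval of the interaction lay within 2-fold in either direction, and 206 of these also changed the same way in both genotypes. Most of the 2012 were thus not called in both responses. The genes named next were chosen from the 206 for the largest shared change. Vegfc, a growth factor for lymphatic vessels, stood at 5.94, 5.69 and 5.40 in cocultured knockout cells, against 3.70, 3.55, 3.68 and 3.84 in knockout BMMCs. In cocultured wild-type cells it stood at 5.13, 5.12, 5.09 and 5.06, against 2.94, 3.30 and 3.07 in wild-type BMMCs. Every cocultured array was above every BMMC array, slide 4 included. Vegfc rose by 1.98 in knockout cells and by 2.0 in wild-type cells, with an interaction of -0.01 (SE 0.28, 95% interval -0.62 to 0.60). Slc7a1, the cationic amino acid transporter that carries arginine, rose by 1.95 in knockout cells and by 1.76 in wild-type cells (interaction 0.19, SE 0.36). Havcr2, which encodes the immune receptor TIM-3, rose by 1.73 in knockout cells and by 1.75 in wild-type cells. The other close rises were Zc3h12c, a gene of the regnase family of ribonucleases (1.82 in knockout cells and 1.94 in wild-type cells), and Tpbgl (1.86 in knockout cells and 1.83 in wild-type cells).

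Among shared falls, Pim2, a serine/threonine kinase that promotes survival downstream of cytokine receptors, changed most. It read -1.73, -1.52 and -1.62 in cocultured knockout cells, against 3.12, 3.5, 3.16 and 3.40 in knockout BMMCs. It read -1.52, -1.40, -2.20 and -1.66 in cocultured wild-type cells, against 3.21, 2.86 and 3.81 in wild-type BMMCs. All cocultured arrays of both genotypes lay far below all BMMC arrays, those of slide 4 included. Pim2 fell by 4.92 in knockout cells and by 4.99 in wild-type cells (interaction 0.07, SE 0.38, 95% interval -0.74 to 0.89). The potassium channel gene Kcnk5 fell by 3.74 in knockout cells and by 3.89 in wild-type cells; it was well above background on 1 of 3 cocultured knockout arrays and 0 of 4 cocultured wild-type arrays, which makes the wild-type fall at least 8.28-fold. Pik3cd, the leukocyte catalytic subunit of phosphoinositide 3-kinase, fell by 2.32 in knockout cells and by 2.22 in wild-type cells. Lpar6, a lysophosphatidic acid receptor, fell by 2.11 in knockout cells and by 2.41 in wild-type cells, and Mapk1ip1 by 2.26 in knockout cells and by 2.16 in wild-type cells. None of these 10 genes had an interaction past the threshold on slides 1 to 3. They had been chosen for a narrow interval of the interaction over all arrays, which include those of slides 1 to 3. The lack of a call there therefore follows in part from the choice and is no separate evidence of agreement.

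**Figure D2:**
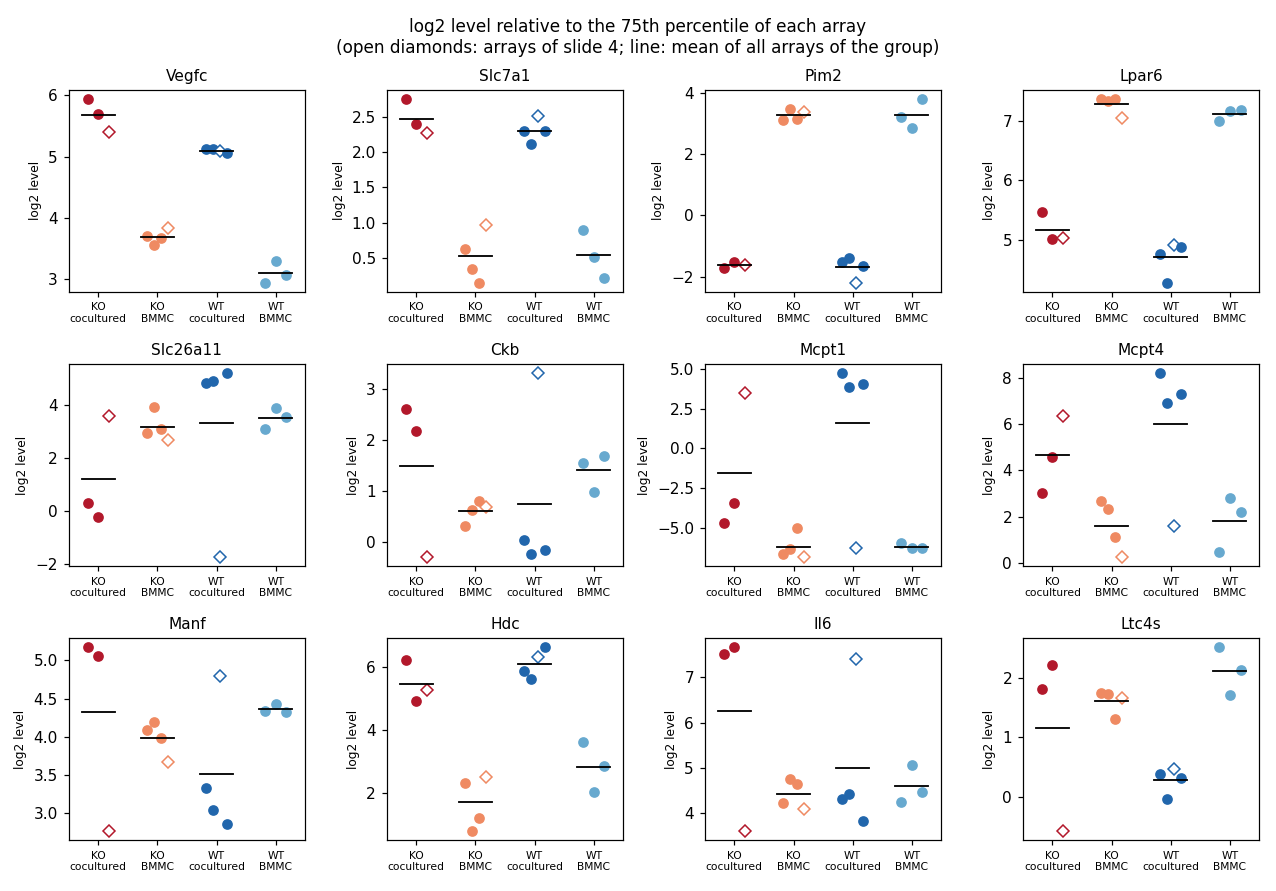
Level of 12 genes (log2 signal minus the array's 75th percentile) on each array, with cocultured knockout, knockout BMMC, cocultured wild-type and wild-type BMMC arrays in that order and slide 4 arrays as open diamonds. Vegfc, Slc7a1, Pim2 and Lpar6 change in the same direction in both genotypes over all 14 arrays. For Slc26a11, Ckb, Mcpt1, Manf and Il6 each cocultured slide 4 array lies nearer the cocultured arrays of the other genotype than those of its own.

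No gene passed the test of the interaction over all 14 arrays (0%, limma with Benjamini-Hochberg adjustment, lowest adjusted p 0.995, which therefore bounds every interaction over 14 arrays below), and 125 of 15846 genes (0.789%) had an unadjusted p under 0.05. The design limits what this shows. The median SE of an interaction was 0.55 and the median half-width of its 95% interval 1.19, wider than 2-fold, and 1533 genes had an estimate of at least 2-fold. The genes with the lowest p in each direction, none of which passed, were the following. The odorant receptor gene Olfr303 (3.36, SE 0.63) was well above background only in wild-type BMMCs, where it read -2.20, -2.84 and -3.56. In its other 3 groups it lay between -4.94 and -6.78, so the fall in wild-type cells is at least 2.16-fold and the response of knockout cells has only a bound. Prdm16, a transcription factor gene (3.58, SE 0.99), read -5.45, -6.14 and -3.55 in cocultured knockout cells, against -6.47, -6.30, -4.86 and -6.72 in knockout BMMCs. It read -3.88, -3.87, -3.13 and -5.93 in cocultured wild-type cells, against -1.94, -1.69 and -1.38 in wild-type BMMCs, the only group that did not overlap the rest. Ubash3a, Zfp947 and Shtn1 followed in that direction, with interactions of 1.55, 1.89 and 1.86.

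In the other direction, Cptp, which encodes a transfer protein for ceramide-1-phosphate, gave the lowest p (-1.46, SE 0.43). It read -2.48, -1.78 and -1.55 in cocultured knockout cells, against -0.29, -0.56, -0.31 and -0.59 in knockout BMMCs. It read -1.33, -1.88, -2.16 and -1.01 in cocultured wild-type cells, against -1.43, -1.57 and -1.65 in wild-type BMMCs. It fell by 1.5 in knockout cells (adjusted p = 0.00665), while its change in wild-type cells, -0.04, was not called (adjusted p = 0.950), and knockout BMMCs were the group that stood above the rest. The corepressor gene Runx1t1 (-2.40), the Rab27 effector gene Sytl1 (-2.94), Apbb2 (-2.21) and the laminin chain gene Lama4 (-3.19) came next. Within the arrays of slides 1 to 3, Olfr303, Zfp947, Shtn1, Cptp and Lama4 passed the test and the other 5 did not.

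With slide 4 left out, the interaction passed the test for 1643 of 15846 genes (10.4%), 1143 higher in knockout (7.21%) and 500 lower (3.16%), with 29.4% of genes at an unadjusted p under 0.05. The split depended on the scaling: with the authors' normalized values, over 8777 genes, it was 191 higher and 832 lower, and the median interaction of all genes was -0.42, against 0.11 here. On slide 4, 1638 of the 1643 had the opposite sign of knockout minus wild-type after coculture. The count rested on few arrays: leaving out the first or the second cocultured knockout array gave 178 or 198 calls, and leaving out the first cocultured wild-type array gave 3076. With the replicate number as a block the count was 709. The cocultured knockout arrays kept lay on slides 1 and 2, and the cocultured wild-type arrays on slides 2 and 3. Only slide 2 held all 4 groups, so genotype and slide are partly confounded in the 11-array fit. Across genes, the difference between the genotypes after coculture correlated at 0.599 between slide 2 and slides 1 and 3 together, at -0.741 between slide 4 and slide 2, and at -0.596 between slide 4 and slides 1 and 3 together. These are descriptions over genes, which are not replicates. The called genes fell into a few patterns. In 583 the gene rose in knockout cells and was not called in wild-type cells, and in 307 it fell in wild-type cells and was not called in knockout cells. In 244 it fell in knockout cells only and in 165 it rose in wild-type cells only. In 143 it rose in knockout cells and fell in wild-type cells, and in 18 it fell in knockout cells and rose in wild-type cells.

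The 6 genes of opposite direction with the largest interaction on slides 1 to 3 were Tgm2, Slc26a11, Slc6a19, Cyp2r1, Ckb and Ociad2. Slc26a11, an anion transporter gene (chr11:119242219-119242278, mm9), read 0.28, -0.21 and 3.57 in cocultured knockout cells, against 2.94, 3.93, 3.10 and 2.68 in knockout BMMCs. It read 4.85, 4.91, -1.73 and 5.2 in cocultured wild-type cells, against 3.09, 3.90 and 3.56 in wild-type BMMCs. Apart from slide 4, the cocultured knockout arrays were below all others and the cocultured wild-type arrays above all others, and on slide 4 the order was turned round. Over 14 arrays its interaction was -1.74 (SE 2.0), and over slides 1 to 3 it was -4.76 (SE 0.46, adjusted p = 0.0047), where it fell by 3.29 in knockout cells and rose by 1.47 in wild-type cells. Tgm2, tissue transglutaminase, which crosslinks proteins, read 0.40, -1.57 and 5.16 in cocultured knockout cells, against 1.0, 1.82, 3.90 and 1.0 in knockout BMMCs. It read 5.44, 6.35, 0.16 and 6.31 in cocultured wild-type cells, against 2.24, 2.60 and 3.70 in wild-type BMMCs. Its interaction was -2.32 (SE 2.28) over 14 arrays and -6.01 (SE 1.16, adjusted p = 0.0187) over slides 1 to 3.

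Ckb, brain-type creatine kinase (chr12:112907696-112907755, mm9), ran the other way. It read 2.62, 2.19 and -0.29 in cocultured knockout cells, against 0.32, 0.62, 0.81 and 0.70 in knockout BMMCs. It read 0.04, -0.23, 3.32 and -0.16 in cocultured wild-type cells, against 1.56, 0.99 and 1.70 in wild-type BMMCs. The slide 4 arrays again held the places of the other genotype. The interaction of Ckb was 1.56 (SE 1.16) over 14 arrays and 3.35 (SE 0.36, adjusted p = 0.00555) over slides 1 to 3, and a second probe gave 3.16. Ociad2 had an interaction of 1.26 over 14 arrays and 2.91 (SE 0.28) over slides 1 to 3. For Slc6a19, a neutral amino acid transporter gene, the values were 1.46 and 4.02. For Cyp2r1, the vitamin D 25-hydroxylase gene, they were 1.81 and 3.77. Slc6a19 was below background on the cocultured wild-type arrays of slides 1 to 3, and with readings at the background floor its interaction there was 2.67.

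The largest interactions below 0 on slides 1 to 3 included secreted, matrix and stromal genes. Genes ranked here were called, well above background on every array of at least 1 group and named in RefSeq, which leaves out genes such as Mcpt1 and Postn, described below. The 10 lowest of those ranked were Ptn, a secreted growth factor (-7.71), Pdgfrb, a receptor of platelet-derived growth factor (-6.28), Mmp14, a membrane-bound matrix protease (-6.20), Tgm2 (-6.01), Gbp6, a guanylate-binding protein (-5.75), Sned1 (-5.57), Matn2, a matrilin of the extracellular matrix (-5.47), Cxcl12, a chemokine of stromal cells (-5.44), Smoc2 (-5.37) and Gpc4, a glypican (-5.32). Ptn read -2.86, -2.30 and 3.13 in cocultured knockout cells and -4.99 to -6.43 in knockout BMMCs. It read 4.13, 5.91, -2.78 and 4.38 in cocultured wild-type cells and -6.04 to -6.35 in wild-type BMMCs. All cocultured arrays exceeded the BMMC arrays, which were all below background, and on slides 1 to 3 the rise was at least 2.26-fold in knockout cells and at least 437-fold in wild-type cells. The interaction of Ptn was -4.08 (SE 2.50) over 14 arrays.

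Of a list of 32 fibroblast marker genes, 14 had a lower interaction on slides 1 to 3 (43.8%, against 3.16% of all genes tested) and 1, S100a6, a higher one. The median interaction of the list was -2.93, against 0.11 over all genes. Over 14 arrays 0 of 32 passed and the median was -1.77. On slides 1 to 3 the count of lower members was 3 with no filter on dim probes, 8 with normexp or the replicate block, and 2 without the first cocultured knockout array, while the median stayed between -3.51 and -2.29 on leaving out each array. Postn, the matrix protein periostin, read -5.58, -6.05 and 0.47 in cocultured knockout cells and -5.00 to -6.81 in knockout BMMCs. It read 1.37, 2.65, -6.28 and 0.84 in cocultured wild-type cells and -5.99 to -6.29 in wild-type BMMCs. The cocultured knockout arrays of slides 1 to 3 and the wild-type array of slide 4 thus read as low as BMMCs. Its rise in wild-type cells on slides 1 to 3 was at least 48.1-fold. Col3a1, a fibrillar collagen chain, did rise in both genotypes, reading 0.54, 1.52 and 4.15 in cocultured knockout cells and 4.96, 6.80, 1.1 and 5.36 in cocultured wild-type cells, against at most -4.97 in knockout BMMCs and at most -5.40 in wild-type BMMCs. Its interaction was -2.53 (SE 1.54) over 14 arrays and -4.90 (SE 0.70, adjusted p = 0.0111) on slides 1 to 3. The median level of the 32 markers was -1.38, -0.79 and 0.83 in cocultured knockout cells, and 1.58, 2.86, -1.40 and 1.27 in cocultured wild-type cells. The number of them well above background was 20, 25 and 30 on the cocultured knockout arrays and 7 to 12 on knockout BMMC arrays, against 31, 31, 22 and 30 on the cocultured wild-type arrays and 9 to 11 on wild-type BMMC arrays. Their summed signal, on the log2 scale, was 7.66 to 8.68 in cocultured knockout cells and 7.12 to 7.46 in knockout BMMCs, against 8.15 to 9.43 in cocultured wild-type cells and 6.96 to 7.22 in wild-type BMMCs. The part of fibroblast RNA in the other interactions was not tested, and in bulk RNA fewer cells of a type and less RNA per cell cannot be told apart.

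**Figure D3:**
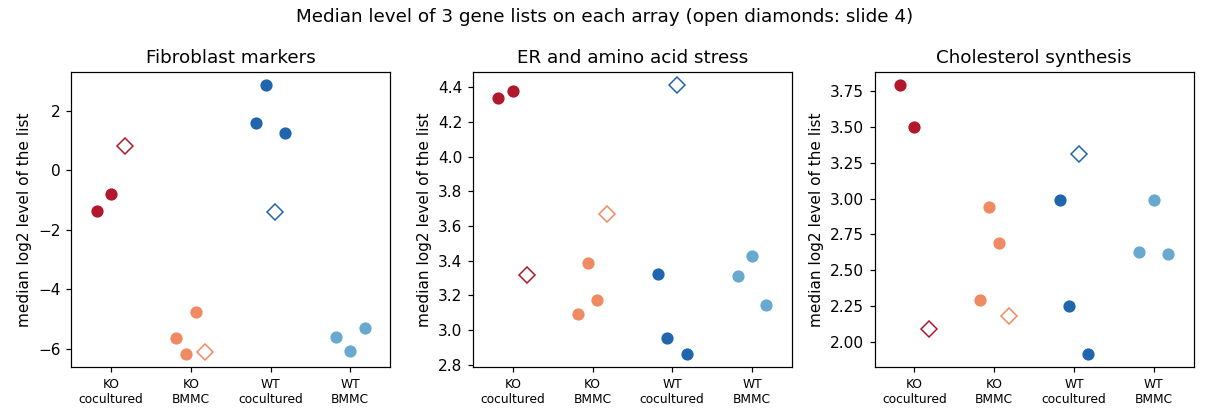
Median level (log2 signal minus the array's 75th percentile) of the fibroblast marker, endoplasmic reticulum stress and cholesterol synthesis lists on each of the 14 arrays, in the order cocultured knockout, knockout BMMC, cocultured wild-type and wild-type BMMC. On slides 1 to 3 fibroblast markers are lower and endoplasmic reticulum genes higher in cocultured knockout than in cocultured wild-type arrays, and on slide 4 both are the other way round.

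The largest interactions above 0 on slides 1 to 3 included genes that fell in both genotypes, by less in knockout cells. Igh, the immunoglobulin heavy chain locus as named on the array, read -0.05, -0.87 and -4.07 in cocultured knockout cells, against 4.77 to 5.88 in knockout BMMCs. It read -4.15, -4.56, 0.06 and -3.25 in cocultured wild-type cells, against 5.31 to 6.26 in wild-type BMMCs. Igh fell by 6.82 in knockout cells and by 8.91 in wild-type cells over 14 arrays (interaction 2.09, SE 1.48), and its interaction on slides 1 to 3 was 4.54 (SE 0.58, adjusted p = 0.00935). Another Igh probe, well above background on 7 arrays, gave 0.39. Grp, gastrin-releasing peptide, and Jaml, a junctional adhesion molecule of leukocytes, had interactions of 7.61 and 6.01 on slides 1 to 3, and of 2.84 and 2.58 over 14 arrays. Grp was below background on the cocultured wild-type arrays of slides 1 to 3, where its fall was at least 95.5-fold, and with readings at the background floor its interaction was 5.44. Clec4e, the pattern receptor Mincle, rose at least 94.7-fold in knockout cells on slides 1 to 3 and had an interaction of 4.39. The chemokine gene Ccl4 had one of 3.96, and Prl2c5, a prolactin-related hormone gene, one of 5.04. Nsg2 (4.92), Slc25a43 (4.22) and Adgrg7 (3.92) completed the 10 highest by the same ranking. Nsg2 did not pass with readings at the floor (3.18, adjusted p = 0.133), and its sign turned with the authors' normalized values (-0.51).

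In the list of endoplasmic reticulum stress genes, every call on slides 1 to 3 was a higher interaction in knockout. Of its 23 measured members 12 had a higher interaction (52.2%, against 7.21% of all genes tested) and 0 a lower one. The median interaction was 1.16 on slides 1 to 3, and 0.59 over 14 arrays, where all 23 estimates were above 0 and 0 passed. In every other normalization, filter and block tried on slides 1 to 3 the list's median stayed above 0 and 2 to 16 members were called higher, the fewest with the authors' values and with no filter on dim probes, and 2 were called without the first cocultured knockout array. Manf, a secreted survival factor induced by misfolded protein in the endoplasmic reticulum (chr9:106791278-106791337, mm9), read 5.17, 5.05 and 2.77 in cocultured knockout cells, against 4.08, 4.19, 3.98 and 3.67 in knockout BMMCs. It read 3.33, 3.04, 4.80 and 2.86 in cocultured wild-type cells, against 4.33, 4.43 and 4.32 in wild-type BMMCs. On slides 1 to 3 the cocultured knockout arrays were above, and the cocultured wild-type arrays below, all BMMC arrays. Manf rose by 1.03 in knockout cells and fell by 1.28 in wild-type cells there (interaction 2.31, SE 0.25, adjusted p = 0.00621), and over 14 arrays the interaction was 1.2 (SE 0.78). Sdf2l1, a partner of the chaperone BiP, had an interaction of 2.33 (SE 0.27) on slides 1 to 3 and 0.83 (SE 0.96) over 14 arrays.

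Chaperones and folding enzymes followed. On slides 1 to 3, the interaction was 1.06 for Hspa5, which encodes BiP, 1.70 for Hsp90b1, which encodes GRP94, 1.53 for the lectin chaperone Calr and 1.14 for its relative Canx. It was 1.98 for the protein disulfide isomerase Pdia6 by its brightest probe and 1.79, 1.47 and -0.62 by others, and 1.41 for Pdia4. The BiP co-chaperone Dnajb9 reached 2.22, Creld2 1.66, Edem1, which routes misfolded glycoproteins to degradation, 1.42, and Chac1, a glutathione-degrading enzyme, 2.39. Members that did not pass included the transcription factor genes Atf4 (0.60), Xbp1 (0.74) and Ddit3 (-0.11). Asns, asparagine synthetase, which ATF4 induces, had the lowest p of the list over 14 arrays (1.46, SE 0.83) and did not pass on slides 1 to 3 either (1.64, adjusted p = 0.291). The median level of the list was 4.34, 4.38 and 3.31 in cocultured knockout cells, and 3.33, 2.95, 4.41 and 2.86 in cocultured wild-type cells. Among cocultured arrays, the 3 with medians of 4.34 to 4.41 had the 3 lowest fibroblast marker medians, as the plot of list medians by array shows, and this did not extend to BMMC arrays.

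The promoters of these genes are shown because 7 of the 22 list members with a promoter window in RefSeq (GRCm38.p6, from 250 bases before to 50 after the start) hold the endoplasmic reticulum stress response element, searched as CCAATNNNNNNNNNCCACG on both strands. Capitals mark the element, reading on the gene's strand, and where it lies on the opposite strand it appears as its reverse complement.
Hspa5 (chr2:34772020-34772049, + strand): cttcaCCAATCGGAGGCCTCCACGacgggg
Hsp90b1 (chr10:86705632-86705661, - strand): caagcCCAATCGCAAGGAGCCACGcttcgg
Hsp90b1, a second match nearer the start (chr10:86705527-86705556, - strand): gagtgCGTGGTGAGGCACGATTGGtgagtt
Calr (chr8:84847069-84847098, - strand): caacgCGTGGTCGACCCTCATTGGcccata
Canx (chr11:50325794-50325823, - strand): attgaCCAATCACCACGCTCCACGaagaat
Pdia6 (chr12:17266486-17266515, + strand): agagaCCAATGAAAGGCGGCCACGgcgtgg
Creld2 (chr15:88819515-88819544, + strand): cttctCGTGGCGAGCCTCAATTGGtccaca
Dnajc3 (chr14:118937822-118937851, + strand): cacaaCCAATCAGCGCCAACCACGacccgg
The first 6 genes were called higher in knockout on slides 1 to 3 and Dnajc3, a BiP co-chaperone, was not (interaction 1.09, adjusted p = 0.102). The element was present in 6 of 11 called and 1 of 11 uncalled list members with a window. It was present in 37 of 27025 genes with a window (0.137%), in 17 of 10333 genes tested (0.165%), in 7 of 853 genes called higher (0.821%) and in 0 of 250 called lower. Of the 7 genes called higher that hold it, 6 are list members and the other is Ero1b, an oxidase that serves disulfide bond formation. The share among genes called higher therefore mostly repeats the calls of the list and is no independent evidence. The related endoplasmic reticulum stress response element II, which does not overlap it, was found in Herpud1 alone among list members (interaction 0.71, not called), and TGACGTGG in 0 of 22. No match in the windows of Manf or Sdf2l1 says only that these letters are not there.

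Of 25 cholesterol synthesis genes measured, 6 had a higher interaction on slides 1 to 3 (24%, against 7.21% of all genes tested) and 0 a lower one, with a median of 1.31, and over 14 arrays 0 passed and the median was 0.64. Within slide 2, the only slide with all 4 groups, the list's median was 0.35 (all genes 0.11). From slides 1 and 3 together it was 1.76 (all genes 0.13). The calls depended on the scaling: with quantile normalization 1 was called higher and 1 lower, and with the authors' values 0 higher and 1 lower, while the median stayed at 0.89 and 0.87. With no filter on dim probes 0 were called, and leaving out 1 array gave 0 to 17 higher calls, 0 without the first cocultured knockout array. The genes called higher included Msmo1 (1.88), Ebp (1.44), Nsdhl (1.25) and Insig1 (2.10), the sterol sensor induced with them. Hmgcs1 passed by its brightest probe (1.65), and other probes gave 1.26 and -2.31. Srebf2, the transcription factor gene of the pathway, did not pass (-0.69).

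Of 31 cell cycle genes 5 had a higher interaction on slides 1 to 3 (16.1%, against 7.21% of all genes tested) and 0 a lower one, and the median was 1.03. The count of higher members was 0 with no filter on dim probes, 1 with normexp or the authors' values, 2 with quantile normalization and 0 without the second cocultured knockout array. Over 14 arrays the median was 0.36 and 30 of 31 estimates were above 0, against 9422 of 15846 over all genes. The called genes were the replication licensing factor Cdc6 (2.57), the ribonucleotide reductase subunit Rrm2 (2.31), the sliding clamp Pcna (1.54), the D-type cyclin Ccnd2 (1.52) and the helicase subunit Mcm6 (1.34). Pcna read 7.24, 7.25 and 5.02 in cocultured knockout cells, against 5.2 to 5.54 in knockout BMMCs. It read 5.86, 5.84, 6.59 and 5.74 in cocultured wild-type cells, against 5.27 to 5.72 in wild-type BMMCs. Pcna rose by 1.82 in knockout cells on slides 1 to 3, while its change in wild-type cells, 0.28, was not called. Members that did not pass included the mitotic genes Plk1 (-0.05), Aurkb (0.20), Ccnb2 (0.03) and Cdc20 (-0.26).

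**Figure D4:**
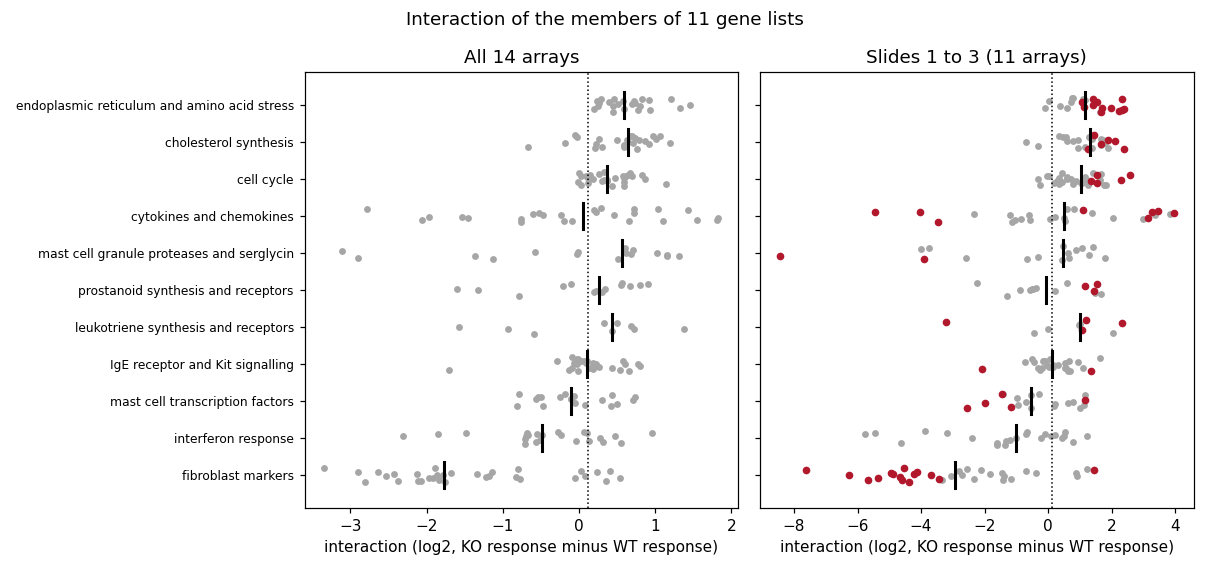
Interaction of each measured gene of 11 gene lists on slides 1 to 3 (log2 difference, knockout response minus wild-type response), with called genes in red, the list median as a black bar and the median of all genes as a dotted line. The endoplasmic reticulum, cholesterol and cell cycle lists lie mostly above the dotted line and the fibroblast list below it.

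Cytokines and chemokines divided. Of 26 measured, 5 had a higher interaction on slides 1 to 3 (19.2%, against 7.21% of all genes tested) and 3 a lower one (11.5%, against 3.16%), and 0 passed over 14 arrays. With no filter on dim probes 1 was higher and 1 lower, and without the first cocultured knockout array 1 was higher and 0 lower. Il6, an inflammatory cytokine that mast cells secrete, read 7.51, 7.66 and 3.61 in cocultured knockout cells, against 4.22, 4.77, 4.65 and 4.09 in knockout BMMCs. It read 4.31, 4.42, 7.41 and 3.83 in cocultured wild-type cells, against 4.25, 5.07 and 4.47 in wild-type BMMCs. Apart from slide 4, the cocultured knockout arrays lay above the BMMC range and the cocultured wild-type arrays did not. The interaction of Il6 was 3.45 (SE 0.40, adjusted p = 0.00695) on slides 1 to 3 and 1.43 (SE 1.34) over 14 arrays. The chemokine genes Ccl3 (3.25), Ccl4 (3.96) and Ccl2 (1.09), which attract monocytes, also passed on slides 1 to 3. Il1a, another inflammatory cytokine, was the fifth. The neutrophil attractants were lower: Cxcl5 had an interaction of -4.03 and Cxcl1 one of -3.47, and both rose in both genotypes; the third was Cxcl12. For Cxcl1 the rise on slides 1 to 3 was at least 46.7-fold in knockout cells and at least 468-fold in wild-type cells. Cxcl1 read 1.31, 2.28 and 2.65 in cocultured knockout cells and 3.70, 6.34, 1.22 and 4.68 in cocultured wild-type cells. Immediate early genes gave 2 higher (8.33%) and 1 lower (4.17%) of 24, near the 7.21% and 3.16% of all genes tested. They were Nr4a2 (3.72) and Fosl2 (1.57, with -0.70 by a second probe) and, lower, Zfp36 (-2.81).

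Granule proteases are the products by which connective tissue mast cells are known. Over 14 arrays 6 of 16 measured rose in both genotypes (against 4.45% of all genes tested) and 0 fell in either. There were 2 with a lower interaction on slides 1 to 3 (12.5%, against 3.16% of all genes tested) and 0 with a higher one, against 7.21%. Mcpt1, a chymase known from mucosal mast cells (chr14:56638928-56638987, mm9), read -4.68, -3.44 and 3.49 in cocultured knockout cells and -4.99 to -6.81 in knockout BMMCs. It read 4.72, 3.88, -6.29 and 4.02 in cocultured wild-type cells and -5.98 to -6.28 in wild-type BMMCs. It was therefore near the BMMC level on the wild-type array of slide 4 and far above it on the other cocultured wild-type arrays. The interaction of Mcpt1 was -8.45 (SE 0.70, adjusted p = 0.00267) on slides 1 to 3, where its rise in wild-type cells was at least 289-fold, and -3.11 (SE 3.35) over 14 arrays.

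Mcpt4, the main chymase of connective tissue mast cells (chr14:56678589-56678648, mm9), read 3.05, 4.58 and 6.35 in cocultured knockout cells, against 2.67, 2.35, 1.11 and 0.27 in knockout BMMCs. It read 8.21, 6.94, 1.61 and 7.33 in cocultured wild-type cells, against 0.47, 2.80 and 2.20 in wild-type BMMCs. Each cocultured knockout array was above its BMMCs, and each cocultured wild-type array but that of slide 4. Its interaction on slides 1 to 3 was -3.89 (SE 1.03, adjusted p = 0.0448), and over 14 arrays it was -1.13 (SE 1.89). Neighbouring chymase genes had negative estimates that did not pass on slides 1 to 3, Cma2 at -3.77 (adjusted p = 0.0782) and Mcpt2 at -2.58 (adjusted p = 0.0551). These chymases are close relatives, and binding of their RNA to each other's probes was not tested. Of proteases already abundant in BMMCs, none was called: over 14 arrays the interaction was 0.61 (SE 0.41) for the chymase Cma1, 0.62 (SE 0.38) for carboxypeptidase Cpa3 and 1.03 (SE 0.53) for the tryptase Tpsb2. Gzmc, a granzyme, rose by 6.71 in knockout cells and by 5.39 in wild-type cells (interaction 1.32, SE 0.46, adjusted p = 0.995), and it was well above background on only 2 BMMC arrays of each genotype. With readings at the background floor that interaction was 0.85. Mrgprb2, the receptor by which mast cells respond to basic secretagogues, showed the order of Mcpt4, with an interaction of -4.16 (SE 0.72, adjusted p = 0.0149) on slides 1 to 3 and -1.38 over 14 arrays.

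Hdc, the enzyme that makes histamine, read 6.21, 4.93 and 5.27 in cocultured knockout cells, against 2.31, 0.79, 1.21 and 2.50 in knockout BMMCs. It read 5.89, 5.61, 6.31 and 6.62 in cocultured wild-type cells, against 3.60, 2.03 and 2.85 in wild-type BMMCs. All cocultured arrays were above all BMMC arrays. Hdc rose by 3.77 in knockout cells and by 3.28 in wild-type cells, with an interaction of 0.49 (SE 0.70, 95% interval -1.02 to 2.0). Of 9 genes of histamine and serotonin handling 0 were called on slides 1 to 3. Of 26 genes of heparin and chondroitin sulfate synthesis 2 were lower there (7.69%, against 3.16% of all genes tested) and 0 higher, against 7.21%. They were the exostosin-like gene Extl3 (-2.53) and the glucuronyltransferase B3gat3 (-1.91 by its brightest probe, 0.15 and 0.42 by others). Ndst2, the sulfotransferase of mast cell heparin, had interactions of -0.07 over 14 arrays and -1.1 on slides 1 to 3, neither called.

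Lipid mediator genes bear on the pathway that Pla2g3 feeds. Of 9 leukotriene genes 3 had a higher interaction on slides 1 to 3 (33.3%, against 7.21% of all genes tested) and 1 a lower one (11.1%, against 3.16%). With quantile normalization, normexp, the authors' values, no filter or the replicate block 1 was higher and 0 lower, and without the second cocultured knockout array 0 were higher. Ltc4s, leukotriene C4 synthase, read 1.81, 2.22 and -0.57 in cocultured knockout cells, against 1.74, 1.73, 1.30 and 1.65 in knockout BMMCs. It read 0.38, -0.03, 0.47 and 0.32 in cocultured wild-type cells, against 2.51, 1.72 and 2.14 in wild-type BMMCs. Here the wild-type array of slide 4 stayed with its own group, and the knockout array of slide 4 did not. Ltc4s fell by 1.83 in wild-type cells over 14 arrays (adjusted p = 0.0325), while the change in knockout cells, -0.45, was not called. Its interaction, 1.38 (SE 0.72), did not pass over 14 arrays, and 2.32 (SE 0.38, adjusted p = 0.0135) did on slides 1 to 3. Alox5ap, the activating protein of 5-lipoxygenase (1.07), and Lta4h, the hydrolase that makes leukotriene B4 (1.19), also passed there, and Ggt5, which converts leukotriene C4, was lower (-3.23). Of 14 prostanoid genes 3 were higher on slides 1 to 3 (21.4%, against 7.21% of all genes tested) and 0 lower, while the list's median was -0.08. They were thromboxane synthase Tbxas1 (1.55, and 0.55 over 14 arrays), Ptges3 (1.44, and 0.90) and the prostaglandin E receptor Ptger3 (1.15, and 0.20). With quantile normalization, the authors' values or no filter 0 were higher, and likewise 0 without the first cocultured knockout array.

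An inducible cyclooxygenase and a prostaglandin D synthase gene rose in both genotypes. Hpgds, the hematopoietic prostaglandin D synthase, rose by 2.27 in knockout cells and by 2.04 in wild-type cells (interaction 0.23, SE 0.36, 95% interval -0.56 to 1.01). Ptgs2, which encodes the inducible cyclooxygenase, was not well above background on any BMMC array and rose at least 41.4-fold in knockout cells and at least 30.4-fold in wild-type cells (interaction 0.80, SE 1.24). For Ptgs1 the interaction was 0.56 over 14 arrays and -0.51 on slides 1 to 3, neither called. Of 12 phospholipase A2 genes 0 were called in the interaction, with 0 at an unadjusted p under 0.05 over 14 arrays. Among them Pla2g4a, the cytosolic phospholipase that releases arachidonic acid, had an interaction of 0.77 (SE 0.66) over 14 arrays and 1.41 (adjusted p = 0.069) on slides 1 to 3. Pla2g3 itself had one of -1.59 on slides 1 to 3 (adjusted p = 0.272).

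Both markers by which the labels define the cells, Fcer1a and Kit, were well above background on all 14 arrays. Fcer1a, the ligand-binding chain of the IgE receptor, read 9.24, 8.99 and 7.68 in cocultured knockout cells, against 8.03, 8.30, 8.28 and 7.96 in knockout BMMCs. It read 8.18, 7.91, 8.50 and 7.98 in cocultured wild-type cells, against 8.33, 8.42 and 8.61 in wild-type BMMCs. The first and second cocultured knockout arrays were the highest and the slide 4 knockout array the lowest. Its interaction was 0.80 (SE 0.46) over 14 arrays and 1.34 (SE 0.26, adjusted p = 0.0188) on slides 1 to 3. Kit had an interaction of 0.26 (SE 0.42, 95% interval -0.66 to 1.17) over 14 arrays and -0.04 on slides 1 to 3. Of 27 genes of this pathway 1 was called in each direction on slides 1 to 3, Fcer1a being the higher one. That is 3.70% each way, against 7.21% higher and 3.16% lower of all genes tested.

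Among 19 mast cell transcription factors 1 was higher on slides 1 to 3, Bhlhe40 (1.15), and 4 were lower, Hes1, a Notch target (-2.56), Zfpm1, a cofactor of GATA factors (-1.98), the runt factor Runx3 (-1.45) and the myeloid factor Spi1 (-1.17), named after its value was seen. These were 5.26% higher and 21.1% lower, against 7.21% and 3.16% of all genes tested. With no filter 0 were called, with quantile normalization or the replicate block 0 were higher and 1 lower, and without the first cocultured knockout array 0 were called. With readings at the background floor Hes1 did not pass (-1.61, adjusted p = 0.148). Of 24 surface receptors 2 were higher (8.33%, near the 7.21% of all genes tested), the inhibitory receptor Cd200r1 (2.03) and the IL-33 receptor Il1rl1 (1.22, with 0.47 and 0.72 by other probes), and 2 lower (8.33%, against 3.16%), Mrgprb2 and its relative Mrgprb1 (-3.93). Tlr2, a receptor for bacterial lipoproteins, had the lowest p of these over 14 arrays (-4.37, SE 1.63) and did not pass on slides 1 to 3 (adjusted p = 0.0617). Of 28 genes of lysosomes and exocytosis 2 were higher (7.14%) and 1 lower (3.57%), near the shares of all genes tested. They were the vesicle SNAREs Vamp7 (1.52) and Vamp8 (1.05) and, lower by its brightest probe, Vamp2 (-1.29, with 0.32 and 0.16 by other probes). Of 27 glycolysis genes, 10 fell in both genotypes over 14 arrays (against 4.24% of all genes tested). On slides 1 to 3 Eno1 (1.67) was higher and Eno2 (-2.76) lower, 3.70% each way, against 7.21% and 3.16% of all genes tested. Interferon response genes gave 0 calls of 23 with a median of -1.0 on slides 1 to 3 and -0.49 over 14 arrays. The sign of that median turned with the slide: it was 0.25 within slide 2 and -1.78 from slides 1 and 3 together.

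Markers of other blood cells gave few calls. On slides 1 to 3, 7.21% of all genes tested were higher and 3.16% lower. Of 12 macrophage markers 1 was higher there (8.33%), Fcgr1 (3.46), and 1 lower (8.33%), C1qc (-5.29). Of 4 basophil markers 1 (25%), Cd200r3, was higher (1.17, with -0.10 by a second probe). Of 4 lymphocyte markers 1 (25%), Klrb1c, was lower (-3.59). The neutrophil, dendritic cell, eosinophil, erythroid and megakaryocyte lists had 0 calls. The 5 sex-linked genes had a median interaction of -7.35 on slides 1 to 3 and -4.03 over 14 arrays, with 0 called. Their levels also varied among the BMMC arrays of each genotype. Among the cocultured arrays of slides 1 to 3, 1 of the 5 was well above background on each knockout array. On each wild-type array there 4 or 5 were, so these levels followed genotype. The part of donor sex in the other interactions was not tested.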

How the data were processed

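RNA of 14 samples was read on 1-colour Agilent mouse arrays. Per the file headers, the authors obtained the deposited spot intensity with Agilent Feature Extraction 9.5.1.1, with detrending on and scaling between arrays not applied. Their annotated table also holds raw and normalized intensity, and 28 of its per-sample columns were not used. A deposited table lists 24 selected probes; 8 of its 14 headings hold another array's values, so only its probe list was used.

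Log2 processed signal minus each array's 75th percentile was computed here. Control and outlier spots were left out, a probe had to be well above background on 3 or more arrays, and the brightest probe stood for each gene, which left 15846 genes. Names come from RefSeq (GRCm38.p6), and probe positions are mm9 from the file headers. The 4 groups were fitted in limma 3.58.1 (R 4.3.3), and every adjusted p is Benjamini-Hochberg over all genes from that test, two-sided, called under 0.05. Intervals are 95%. The interaction fit was tested on simulated data. A gene below background on all arrays of a group has only a bound, computed against the lowest signal well above background. From 43.0% to 55.9% of probes were well above background per array. The precision is limited by how many arrays there are.

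Named genes are Pla2g3, the 10 largest interactions in each direction or, where none passed, the 5 lowest p, the 6 largest opposite changes, the 5 closest shared rises and falls, up to 4 genes per list, a fixed set of mast cell genes, and the authors' selected probes. Other list members were named after their values were seen. Members, lists and rules were chosen with earlier results of these data known. Alternatives were scaling, background correction, filters, probe choice, slide and replicate blocks, array weights and leaving out arrays. The Ptgdr, Ptgds and Ms4a2 probes did not pass the filter. Some named genes are not reported here.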

Additional observations from a re-analysis of the deposited data

Results flagged for a closer look

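The coculture response differed between the genotypes for 1643 genes in the limma interaction test on slides 1 to 3 (10.4%), and for 0 genes over all 14 arrays. Among 112 sets of 4 arrays of 1 gene in 1 group, 6 held an array far from its group by Dixon's test, where chance gives about 1 in 20. The sets share arrays and are not independent, so that rate cannot say whether chance accounts for the 6. Of them, 5 were on the third cocultured wild-type array, on slide 4, and these 5 genes had been chosen for large interactions on slides 1 to 3, a fit that leaves that array out, so where they lie follows in part from the choice. On it Grp read 1.44, against -5.87 to -6.37 on the other cocultured wild-type arrays, Slc6a19 read -0.21, against -4.85 to -5.67, and Ckb read 3.32, against 0.04 to -0.23. Tgm2 read 0.16, against 5.44 to 6.35, and Slc26a11 read -1.73, against 4.85 to 5.2. Each of these readings lay towards the cocultured knockout arrays of slides 1 to 3. The other was Lpar6, which read 7.04 on the fourth knockout BMMC array and 7.33 to 7.36 on the others. Groups of 3 arrays, cocultured knockout among them, were too small for this test. Whether labels, slide or culture account for these readings was not tested.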

How the results depend on the processing

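With all 14 arrays, 0 genes were called for the interaction under every scaling, filter, probe choice, slide block and single omission tried, and with the replicate number as a block. The exceptions were array weights (3665 genes, 2437 higher and 1228 lower), omission of slide 4 (1643, 1143 higher and 500 lower) and omission of its cocultured pair (1923, 1333 higher and 590 lower). Genes called in opposite directions numbered 165 with array weights, 161 without slide 4 and 158 without the pair. For the same settings in that order, the correlation of the responses was 0.616, 0.587 and 0.601, and the knockout response had 7288, 4685 and 4957 calls and the wild-type response 4949, 3783 and 3657. Within slide 2 the correlation was 0.592, and with no filter 0.8. Calls in the knockout response were 1396 with no filter, 1254 with the replicate block and 1046 with the authors' values; in the wild-type response the block gave 1342 and the authors' values 1108. Shared calls were 2518 with array weights, 893 with no filter, 864 with the block and 556 with the authors' values. Intervals within 2-fold numbered 3276 with array weights, 1222 with no filter, 11389 with normexp, 3217 with quantile normalization, 1051 with the block, 3255 with slide fixed and 47 with the authors' values. Leaving out 1 array gave a correlation of 0.717 to 0.894, 873 to 1392 shared calls, 1058 to 3301 knockout calls, 1112 to 2609 wild-type calls, 1123 to 1925 intervals within 2-fold and a size ratio of 0.8375 to 0.9561.

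On slides 1 to 3, calls (higher, lower, opposite) were 3917 (2577, 1340, 368) with array weights, 164 (97, 67, 29) with no filter, 902 (576, 326, 107) with normexp, 724 (426, 298, 74) with quantile normalization, 709 (429, 280, 76) with the replicate block, 2483 (1691 higher, 792, 256) with slide random and 1023 (191, 832, 77) with the authors' values. Leaving out 1 array gave 178 to 3076 calls, 108 to 2161 higher, 67 to 915 lower and 39 to 274 opposite, and each of the 11 omissions moved the count by over 1.5 times. Nsg2 reversed with the authors' values (-0.51). Of 100 named genes, 57 lost the call with no filter and 38 with quantile normalization. The 100 include genes not called on slides 1 to 3, which had no call to lose, so the shares lost among called genes are larger. The causes were not tested. Replicate numbers did not pair the cocultured arrays of the genotypes, which deviated with r of -0.434, -0.149 and -0.547, while same-numbered BMMC arrays, which share a slide, did deviate together (0.197, 0.499 and 0.487). The block therefore pairs only part of the samples.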

Other observations

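The authors' table of selected probes also holds genes not described above. Ndrg1, a stress-induced gene known from maturing mast cells, read 7.50, 6.65 and 7.18 in cocultured knockout cells, against 4.02 to 5.23 in knockout BMMCs. It read 7.35, 7.62, 6.91 and 7.92 in cocultured wild-type cells, against 4.30 to 5.69 in wild-type BMMCs. Every cocultured array exceeded every BMMC array, and Ndrg1 rose in both genotypes with an interaction of -0.00 (SE 0.56). Il1r1, the signalling receptor of interleukin-1, rose in both genotypes with an interaction of -0.88 (SE 1.08) over 14 arrays and -2.35 on slides 1 to 3 (limma, adjusted p = 0.142). The chemokine genes Cxcl10 and Cx3cl1 also rose in both, with interactions of -0.47 (SE 1.52) and -1.59 (SE 1.68) over 14 arrays. On slides 1 to 3 these interactions were -2.33 and -3.68. Ptgir, the prostacyclin receptor gene, rose in knockout cells (limma, adjusted p = 0.00931) and was not called in wild-type cells (limma, adjusted p = 0.0544), and its interaction of 0.66 (SE 0.64, with 0.28 by a second probe) was not called. The Ptgir interaction on slides 1 to 3 was 1.47, with -0.04 by the second probe. Il4, Il1b, Ccl9 and Tnfsf14 were called in neither response over 14 arrays. Their interactions on slides 1 to 3 were 0.05, 3.00, 0.60 and 1.58 in that order, against -0.24, 0.29, -0.19 and 0.18 over 14 arrays. None of these 9 genes had a called interaction with 14 arrays or on slides 1 to 3.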
